A study of Homo sapiens with 4 samples.

Results

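Respiratory complex I is the first enzyme of the mitochondrial electron transport chain. It passes electrons from NADH to ubiquinone and pumps protons across the inner membrane. Its subunits come from 2 genomes, and a set of assembly factors builds them together without staying in the finished enzyme. In a tumour line the complex feeds respiration and regenerates NAD+, and its makeup needs transcripts from the nucleus and from mitochondrial DNA side by side. The members described here are the genes whose name begins with NDUF (nuclear subunits and assembly factors) or MT-ND (mitochondrially encoded subunits). They number 53 of the 11972 protein-coding genes in the deposited table, with 46 NDUF genes and 7 MT-ND genes. By their known roles these are 7 nuclear core subunits, 30 supernumerary subunits, 8 assembly factors, 7 mitochondrially encoded core subunits and NDUFA4, which carries the name but is known as a subunit of complex IV. Its paralog NDUFA4L2 was not analysed here.

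RNA came from 143B, a human osteosarcoma cell line, grown in high-glucose medium with serum and puromycin. In the shFTO group the cells stably carried a plasmid with a short hairpin RNA against FTO, which encodes a demethylase of N6-methyladenosine in RNA. In the shCtrl group they carried a control plasmid, and each group had 2 libraries. The sources used here do not say whether the stable cells were pools or single clones. The labels do not tie the libraries to separate cultures either, and p-values therefore reflect library-to-library spread, which may be technical. Messenger RNA was selected on oligo(dT) beads, and each gene has a deposited value in FPKM, a fragment count scaled to transcript length and to the mapped fragments of the library.

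FTO was listed at 0.268 and 0.242 FPKM in the shFTO libraries, against 1.14 and 0.665 FPKM in the shCtrl libraries. On the log2(FPKM + 1) scale FTO differed by -0.59 (limma adjusted p = 0.313 in a fit over all 11972 listed genes, because FTO lay under the expression minimum). The direction matched the labels, but the difference did not pass. FPKM carry no read counts, so depth is unknown, and the listed values summed to between 200555 and 212531 per library. The mesenchymal marker VIM lay between 253 and 329 FPKM and SPARC between 61.3 and 85.3 FPKM over the 4 libraries, whereas COL1A1 lay between 0.643 and 2.07 FPKM and COL1A2 was not analysed here. The osteoblast markers RUNX2 and ALPL stayed under 1 FPKM in all 4 libraries. Of 4 epithelial and 4 leukocyte markers, 1 each was listed, EPCAM at 2.43 to 4.46 FPKM and CD68 at 11.9 to 25.8 FPKM. CD68 was highest in shFTO replicate 2, at 25.8 FPKM against 11.9 to 13.4 FPKM in the other 3 libraries.

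The ends of the mitochondrial transcripts show how the MT-ND genes differ from the nuclear ones in a library made from polyadenylated RNA. These genes carry no introns, and in 4 of the 7 the annotated transcript stops before a full stop codon, which the poly(A) tail is known to complete. The last 24 bases of each are given 5′ to 3′ on the gene's own strand from GENCODE release 29, with the bases of the complete or partial stop codon in capitals. The gene coordinates in the deposited table equalled those of GENCODE for all 7 genes.
MT-ND1 (chrM:3307-4262, plus strand): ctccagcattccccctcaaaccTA
MT-ND2 (chrM:4470-5511, plus strand): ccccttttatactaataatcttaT
MT-ND3 (chrM:10059-10404, plus strand): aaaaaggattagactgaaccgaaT
MT-ND4L (chrM:10470-10766, plus strand): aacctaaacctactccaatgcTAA
MT-ND4 (chrM:10760-12137, plus strand): acatcattaccgggttttcctctT
MT-ND5 (chrM:12337-14148, plus strand): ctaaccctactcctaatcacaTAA
MT-ND6 (chrM:14149-14673, minus strand): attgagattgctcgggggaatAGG
MT-ND6 is the 1 member of the 7 on the opposite strand. Its last base abuts the last base of MT-ND5, and its messenger is known to carry little or no poly(A) tail.

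MT-ND4L and MT-ND4 share 7 bases and are known to be carried on 1 messenger, so their reads come from a common molecule. The end of MT-ND4L and the start of MT-ND4, 24 bases each from GENCODE release 29, are shown because this bears on how their values are read. Capitals mark the shared bases, which hold the start codon of MT-ND4 and the stop codon of MT-ND4L.
MT-ND4L, 3′ end: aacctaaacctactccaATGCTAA
MT-ND4, 5′ end: ATGCTAAaactaatcgtcccaaca

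The nuclear members lie scattered over the chromosomes, and some share letters near their starts. RefSeq promoters (GRCh38.p14, 250 bases before to 50 after the gene start) were matched for 39 of the 46 NDUF genes, as 51 promoters. Motifs were searched on both strands. The NRF1 motif CGCATGCGC was found in 6 of the 51 (11.8%), against 1.92% of all 35116 promoters in the table. The YY1 motif ATGGCGGC was found in 12 (23.5%, against 3% of all promoters) and the ETS motif CCGGAAG in 8 (15.7%, against 10.3%). Promoters of 1 gene can share a site, and by gene the counts were 6 (NRF1), 10 (YY1) and 7 (ETS) of the 39. The YY1 letters begin with ATG, so a match past the gene start can be a start codon and the codons after it. Forward YY1 matches began 12 to 25 bases past the gene start for NDUFA13, NDUFA9, NDUFAF8, NDUFB11, NDUFS3, NDUFS4 and NDUFS6. NDUFA7 and NDUFS8 had forward matches before the gene start, and NDUFS1 had reverse matches. Whether any match is a start codon was not tested. Motif matches are letters in a window and say nothing of binding, and 21 of the 39 genes held none of the 3 motifs. Windows of 30 bases are shown for some core subunits and some members named with their values later. They leave out the forward YY1 matches past the gene start. Each window is on the gene's strand with the motif in capitals.
NDUFS7, NRF1 (chr19:1383823-1383852, plus strand): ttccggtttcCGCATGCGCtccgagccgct
NDUFA8, NRF1 (chr9:122159763-122159792, minus strand): ttgccggatgCGCATGCGCaggcgccgtgt
NDUFS6, NRF1 (chr5:1801351-1801380, plus strand): cagaagccgtGCGCATGCGttagcgctaag
NDUFS1, YY1 (chr2:206159413-206159442, minus strand): agttagccgagGCCGCCATattgaataagc
NDUFS8, YY1 (chr11:68030493-68030522, plus strand): cccaaaccaacATGGCGGCcccctacaaac
NDUFS3, ETS (chr11:47578961-47578990, plus strand): cggaacctccgCTTCCGGctccacgtccgc
NDUFA1, ETS (chrX:119871774-119871803, plus strand): ttccgtcgcttCTTCCGGagccgtacgtgg
NDUFS1, NDUFS3, NDUFA13 and NDUFAF8 each held both a YY1 and an ETS match. For NDUFS3, NDUFA13 and NDUFAF8 the YY1 match was the forward match past the gene start.

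The first comparison asked whether complex I transcripts differed between shFTO and shCtrl cells. All 53 members passed the filter on low values (at least 1 FPKM in at least 2 libraries), and 0 of them passed the threshold of a limma adjusted p under 0.05, where 3 of all 10873 tested genes (0.0276%) did. At an unadjusted limma p under 0.05 there was 1 member, NDUFB9, against 10.9% of all tested genes (7.11% higher in shFTO, the direction of NDUFB9, and 3.74% lower). The 2 groups did not overlap for 12 of the 53 members, against 42.6% of all tested genes. Differences were small: 42 of the 53 were under 0.2 in size on the log2(FPKM + 1) scale and 49 were under 0.3. Of all 10873 tested genes 6162 were under 0.2 and 7999 under 0.3. The median size was 0.10 for the members, against 0.17 for all tested genes. Members also had higher levels, with a median mean level of 25.7 FPKM against 6.6 FPKM for all tested genes. The part of level in the size of the differences was not tested. Exact two-sided permutation of 2 libraries against 2 gives p = 0.333 at the least for any gene. By the authors' deposited table, NDUFS1 was the 1 member with p under 0.05 (p = 0.0255, q = 0.515), against 9.25% of all listed genes.

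**Figure D1:**
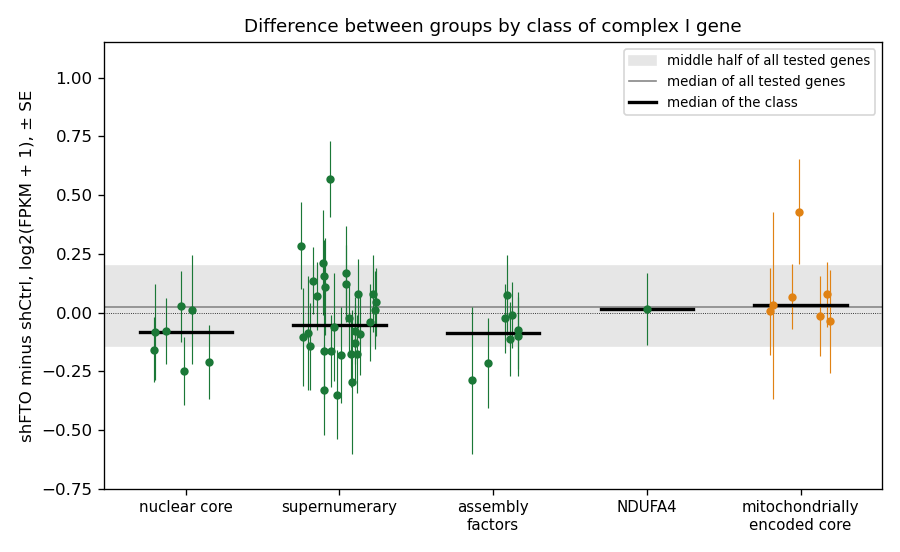
Difference between shFTO and shCtrl for each of the 53 complex I genes on the log2(FPKM + 1) scale, by class, with its standard error from limma as a bar and the median of the class as a black line. The grey band is the middle 50% of all 10873 tested genes (-0.14 to 0.20). Most members lie inside or near the band. NDUFB9 at 0.57 and MT-ND5 at 0.43 lie farthest above it, and NDUFB5 at -0.35 and NDUFAB1 at -0.33 lie farthest below it.

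Of the 46 nuclear members 29 lay below shCtrl in shFTO (63%, against 46.2% of all tested genes), with a median difference of -0.08, where the median of all tested genes was 0.02. The count below shCtrl was 28 to 34 of 46 under the 3 other scalings. The sign of the median depended on the libraries. Leaving out replicate 1 put the nuclear median at -0.17 (shFTO) or -0.15 (shCtrl), and leaving out replicate 2 put it at 0.05 (shFTO) or 0.06 (shCtrl). In bulk RNA, fewer cells that express a gene and less of its RNA per cell cannot be told apart.

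The 7 nuclear core subunits hold the flavin and iron-sulphur clusters and the quinone site. NDUFV1, which binds FMN and oxidises NADH, had 31.1 and 30.3 FPKM in shFTO, against 27.4 and 33.2 FPKM in shCtrl. NDUFV2, its partner with an iron-sulphur cluster, had 55.9 and 49.6 FPKM in shFTO, against 58.5 and 67.3 FPKM in shCtrl. NDUFS1, the large subunit that carries several of the clusters, had 14.0 and 14.5 FPKM in shFTO, against 16.0 and 16.1 FPKM in shCtrl. The shFTO values of NDUFV1 lie inside the range of shCtrl, whereas both shFTO values of NDUFV2 and NDUFS1 lie below both shCtrl values.

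Toward the quinone site, NDUFS3, a subunit of the quinone module, had 12.4 and 11.2 FPKM in shFTO, against 12.7 and 14.9 FPKM in shCtrl. NDUFS7, which holds the last cluster before ubiquinone, had 5.96 and 4.11 FPKM in shFTO, against 4.14 and 5.81 FPKM in shCtrl. The groups of NDUFS3 do not overlap and those of NDUFS7 do, with the shFTO pair of NDUFS7 spanning the shCtrl pair. NDUFS8, another carrier of clusters, had 16.0 and 13.7 FPKM in shFTO, against 13.3 and 18.7 FPKM in shCtrl.

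For these core genes the differences ran from -0.25 for NDUFV2 (SE 0.15, 95% confidence interval -0.61 to 0.11, limma adjusted p = 0.586) to 0.03 for NDUFV1 (SE 0.15, limma adjusted p = 0.97). NDUFS3 differed by -0.21 and NDUFS1 by -0.16 (limma adjusted p = 0.67 and 0.715). None of the 7 passed, and for 3 of them, NDUFV2, NDUFS1 and NDUFS3, both shFTO libraries were lower than both shCtrl libraries, against 18.1% of all tested genes. NDUFS3 overlaps PTPMT1 on its strand, so its reads could be divided with that gene.

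The 30 supernumerary subunits surround the core and stabilise it. In this class 17 lay below shCtrl and 13 above, with a median of -0.05, and 0 passed. NDUFB9, a subunit of the distal membrane arm (chromosome 8, 125551344 to 125580751, hg19), had 64.2 and 50.6 FPKM in shFTO, against 37.5 and 38.7 FPKM in shCtrl. Both shFTO values exceeded both shCtrl values, and the pair in shFTO was farther apart than the pair in shCtrl. Mean levels were 57.4 ± 9.64 FPKM (shFTO) and 38.1 ± 0.825 FPKM (shCtrl), with SD over 2 libraries each. The difference of 0.57 was the largest of the 53 (SE 0.16, 95% confidence interval 0.17 to 0.97), with a limma adjusted p = 0.329 over all genes. The gene span of NDUFB9 overlaps that of MTSS1 by 17721 bases and that of TATDN1 by 356 bases on the opposite strand. Exons were not compared, so how far reads could be shared if counting ignored strand is unknown. Its difference ranged from 0.40 without shFTO replicate 1 to 0.74 without shFTO replicate 2.

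The other members in the higher direction with small p-values were NDUFB1, NDUFB11, NDUFA7, NDUFA1 and NDUFA3. NDUFB1 had 26.4 and 20.2 FPKM in shFTO, against 17.3 and 20.4 FPKM in shCtrl. NDUFA1, a small membrane subunit encoded on the X chromosome, had 144.7 and 130.9 FPKM in shFTO, against 116.9 and 134.2 FPKM in shCtrl. The 5 genes differed by 0.28, 0.16, 0.21, 0.13 and 0.17 in the order named (limma adjusted p from 0.617 to 0.796). Their groups all overlapped, whereas 42.6% of all tested genes had groups that did not overlap. NDUFA7 overlaps AC010323.1 on its strand.

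In the lower direction NDUFB5, of the distal membrane arm, had 11.2 and 9.02 FPKM in shFTO, against 11.6 and 14.8 FPKM in shCtrl. NDUFAB1, the mitochondrial acyl carrier protein, had 50.1 and 36.4 FPKM in shFTO, against 50.04 and 58.2 FPKM in shCtrl. NDUFA8, a twin-cysteine subunit of the intermembrane space side, had 50.5 and 47.2 FPKM in shFTO, against 51.5 and 59.4 FPKM in shCtrl. The groups of NDUFB5 and NDUFA8 do not overlap, and those of NDUFAB1 overlap by the narrow margin between shFTO replicate 1 and shCtrl replicate 1. These 3 differed by -0.35, -0.33 and -0.18 (limma adjusted p = 0.56, 0.584 and 0.689). NDUFV2, NDUFS3 and NDUFS1 complete the 6 nuclear members with the smallest p-values in this direction. NDUFC2, a membrane subunit named after its values were seen, was lowest in shFTO replicate 2, with 31.8 and 16.5 FPKM in shFTO, against 26.0 and 31.1 FPKM in shCtrl. The other 18 supernumerary genes differed by between -0.18 for NDUFA13 and 0.12 for NDUFB4. Among them both shFTO libraries were higher than both shCtrl libraries for NDUFA5 and lower for NDUFA9, NDUFA10 and NDUFA12, whose names follow from that count. Over all tested genes 24.6% were higher and 18.1% lower in this way.

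By level, NDUFS5, a subunit on the intermembrane-space side, was the highest nuclear member, at 291 and 267 FPKM in shFTO, against 245 and 288 FPKM in shCtrl. NDUFS6, a zinc-binding subunit of the NADH module, had 124 and 112 FPKM in shFTO, against 114 and 126 FPKM in shCtrl. Together with NDUFA1 these were the 3 highest by mean level over the 4 libraries, at 273, 119 and 132 FPKM for NDUFS5, NDUFS6 and NDUFA1. The 3 lowest were the assembly factors NDUFAF5 and NDUFAF6, at mean levels of 2.34 and 3.43 FPKM, and the core subunit NDUFS7 at 5.01 FPKM. FPKM are scaled to transcript length, which allows only a rough comparison across genes. Gaps between libraries of a group still moved with length, as given below. The groups of all 6 of these genes overlapped, whereas 42.6% of all tested genes had groups that did not.

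The assembly factors build the complex in stages. NDUFAF1, a part of the inner-membrane assembly complex, had 13.32 and 12.97 FPKM in shFTO, against 12.9 and 13.6 FPKM in shCtrl. NDUFAF2, a chaperone late in assembly, had 74.0 and 60.5 FPKM in shFTO, against 67.9 and 77.1 FPKM in shCtrl. NDUFAF1 was the steadiest of the class over the 4 libraries. NDUFAF3 and NDUFAF4 act together on the quinone module. NDUFAF3 had 14.8 and 8.3 FPKM in shFTO, against 11.1 and 17.0 FPKM in shCtrl, and NDUFAF4 had 14.0 and 11.9 FPKM in shFTO, against 12.7 and 15.2 FPKM in shCtrl. Both had their lowest value in shFTO replicate 2 and their highest in shCtrl replicate 2.

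NDUFAF5, which hydroxylates NDUFS7, had 2.42 and 2.21 FPKM in shFTO, against 2.32 and 2.42 FPKM in shCtrl. Its partner NDUFAF8 had 25.2 and 22.1 FPKM in shFTO, against 23.5 and 32.2 FPKM in shCtrl. NDUFAF7, a methyltransferase, had 7.78 and 6.52 FPKM in shFTO, against 7.81 and 7.33 FPKM in shCtrl. NDUFAF6, needed early in assembly of the membrane arm, had 3.69 and 3.37 FPKM in shFTO, against 2.93 and 3.71 FPKM in shCtrl. The groups overlapped for all 8 assembly factors, whereas 42.6% of all tested genes had groups that did not overlap. Of the 8 factors 7 lay below shCtrl (against 46.2% of all tested genes) and 1, NDUFAF6, above. Differences ran from -0.29 for NDUFAF3 to 0.07 for NDUFAF6, with 0 past the threshold (lowest limma adjusted p = 0.72, for NDUFAF8). NDUFA4 had 53.4 and 49.1 FPKM in shFTO, against 45.8 and 55.9 FPKM in shCtrl, a difference of 0.02.

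Grouped by place in the enzyme, the nuclear NADH module had a median difference of -0.11 over 8 genes and the quinone module -0.03 over 8. The proximal membrane arm had -0.14 over 9 nuclear genes and the distal arm 0.00 over 12. Each of these medians was smaller than the difference between the 2 libraries of either group, where the medians over the same genes were 0.16 and 0.17 for the NADH module, 0.13 and 0.28 for the quinone module, 0.23 and 0.25 for the proximal arm and 0.26 and 0.26 for the distal arm (shFTO pair first, shCtrl pair after it).

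**Figure D2:**
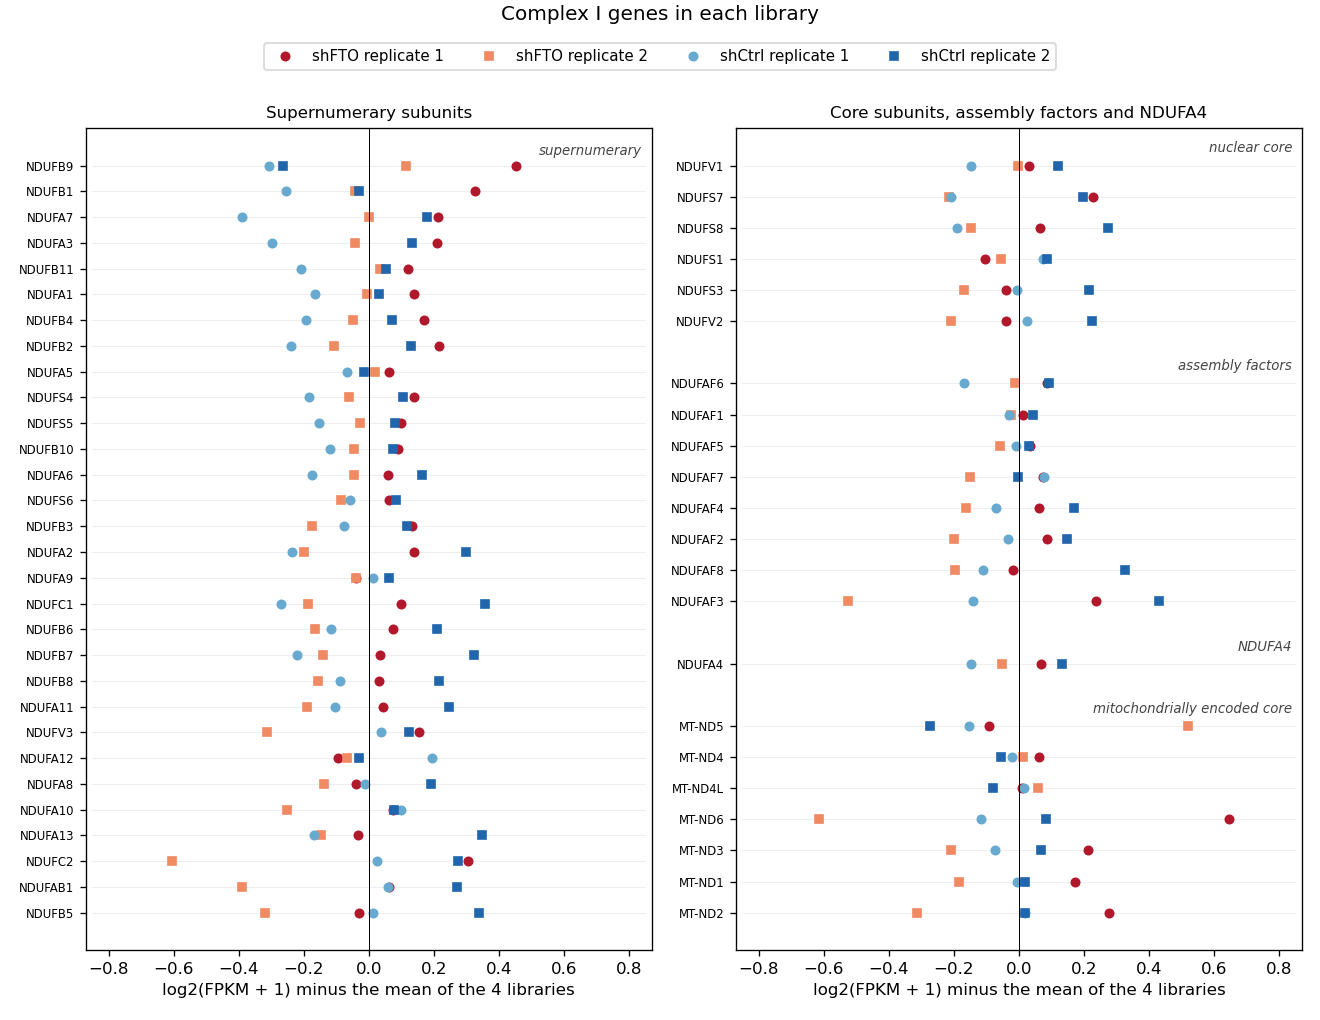
Complex I genes in each library, with 1 core subunit not drawn, as log2(FPKM + 1) minus the mean of its 4 libraries, sorted within class by the difference between groups. For most nuclear genes shFTO replicate 1 and shCtrl replicate 2 lie to the right and shFTO replicate 2 and shCtrl replicate 1 to the left, so the libraries of a group stand apart.

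The libraries of a group differed from each other in a common direction for the nuclear members. Values in shFTO replicate 1 exceeded those in shFTO replicate 2 for 43 of 46 (48.3% of all tested genes), with a median gap of 0.19 on the log2(FPKM + 1) scale. In shCtrl, replicate 2 exceeded replicate 1 for 43 of 46 (49.1% of all tested genes), with a median gap of 0.24. Both held at once for 41 of the 46, against 28.6% of all tested genes, whose median gaps were -0.01 and -0.01. Relative to each gene's own mean, the medians of the NDUF genes were 0.07 and -0.12 in shFTO and -0.11 and 0.13 in shCtrl. The 2 gaps were larger than the median difference between the groups (-0.08).

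Transcript length moved with these gaps. NDUF transcripts are short: the longest coding transcript in GENCODE release 29 had a median length of 1314 bases for the 46 NDUF genes, against 3418 bases for the 10803 tested genes with a length. Over those genes length and the gap were negatively related (Spearman's rho = -0.254 for the shFTO gap and -0.506 for the shCtrl gap, a description across genes, which are not independent). With genes divided into 3 length classes of near-equal size, the median gaps were 0.09 and 0.13 in the shortest class (up to 2536 bases) and -0.12 and -0.13 in the longest. The 37 NDUF genes of the shortest class had median gaps of 0.20 and 0.26, the 3 of the middle class 0.29 and 0.33, and the 6 of the longest class 0.07 and 0.04. All genes of the middle class had median gaps of -0.02 and -0.01. The part of length in the common shift of the nuclear genes was not tested.

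**Figure D3:**
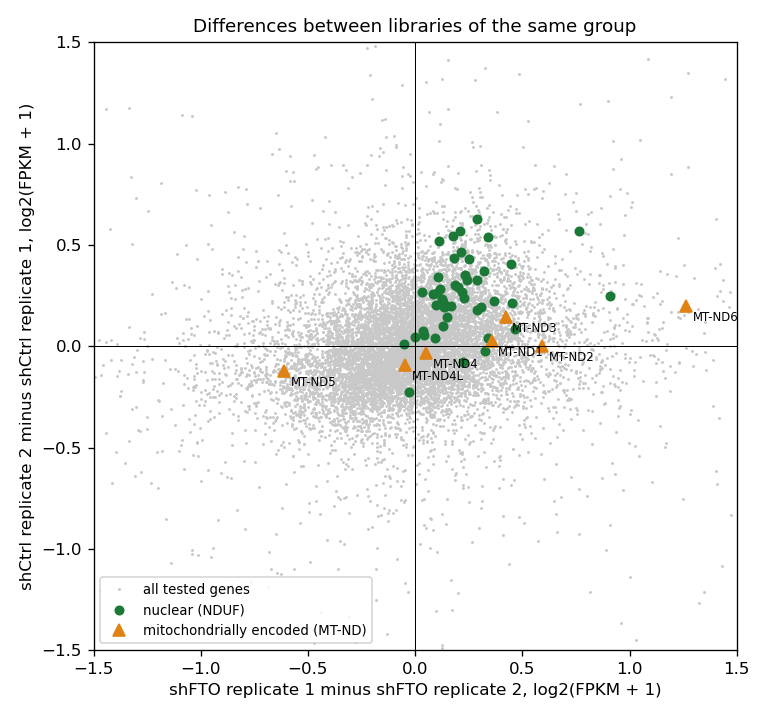
Difference between the 2 libraries of shFTO (horizontal) and of shCtrl (vertical) for all 10873 tested genes (grey), NDUF genes (green) and MT-ND genes (orange), on the log2(FPKM + 1) scale. Of the NDUF genes 41 of 46 lie above 0 on both axes, MT-ND6 lies far right and MT-ND5 far left, and 119 genes, none of them a member, fall outside the axes.

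The mitochondrially encoded subunits form the proton-pumping core of the membrane arm. MT-ND1, next to the quinone site, had 2330.2 and 1819.7 FPKM in shFTO, against 2060.3 and 2097 FPKM in shCtrl. MT-ND2, a pumping subunit, had 2800.2 and 1858 FPKM in shFTO, against 2342.1 and 2341.8 FPKM in shCtrl. MT-ND3, which holds a mobile loop near the quinone site, had 1221 and 912 FPKM in shFTO, against 1001 and 1105 FPKM in shCtrl. For all 3 of these genes the shFTO pair spans the shCtrl pair, with shFTO replicate 1 highest and shFTO replicate 2 lowest.

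MT-ND4L had 2425 and 2507 FPKM in shFTO, against 2433 and 2278 FPKM in shCtrl. MT-ND4, a pumping subunit of the distal arm, had 3343 and 3230.5 FPKM in shFTO, against 3152 and 3079 FPKM in shCtrl. These bicistronic neighbours kept within a narrow band in all 4 libraries, and the groups of MT-ND4 do not overlap although its difference was 0.08 (SE 0.14, limma adjusted p = 0.881). The difference of MT-ND4L was 0.07.

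MT-ND5, the pumping subunit at the far end of the membrane arm, had 627 and 958 FPKM in shFTO, against 599.8 and 552 FPKM in shCtrl. MT-ND6, on the opposite strand, had 1678 and 699 FPKM in shFTO, against 989 and 1136 FPKM in shCtrl. These neighbours stood apart in opposite directions in the shFTO libraries: MT-ND5 was highest and MT-ND6 lowest in shFTO replicate 2. The ratio of MT-ND6 to MT-ND5 was 2.68 and 0.73 in shFTO, against 1.65 and 2.06 in shCtrl. RNA was selected on oligo(dT), the MT-ND6 messenger carries little or no poly(A) tail, and whether counting used strand is not given. The FPKM listed at MT-ND6, and the ratio, may therefore not reflect its own messenger alone, which was not tested. MT-ND5 averaged 792 ± 234 FPKM (shFTO) and 576 ± 34.1 FPKM (shCtrl), with SD over 2 libraries each. MT-ND6 averaged 1189 ± 692 FPKM (shFTO) and 1062 ± 104 FPKM (shCtrl). The difference was 0.43 for MT-ND5 (SE 0.22, 95% confidence interval -0.12 to 0.98, limma adjusted p = 0.549) and 0.03 for MT-ND6 (SE 0.40, 95% confidence interval -0.95 to 1.01, limma adjusted p = 0.986).

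**Figure D4:**
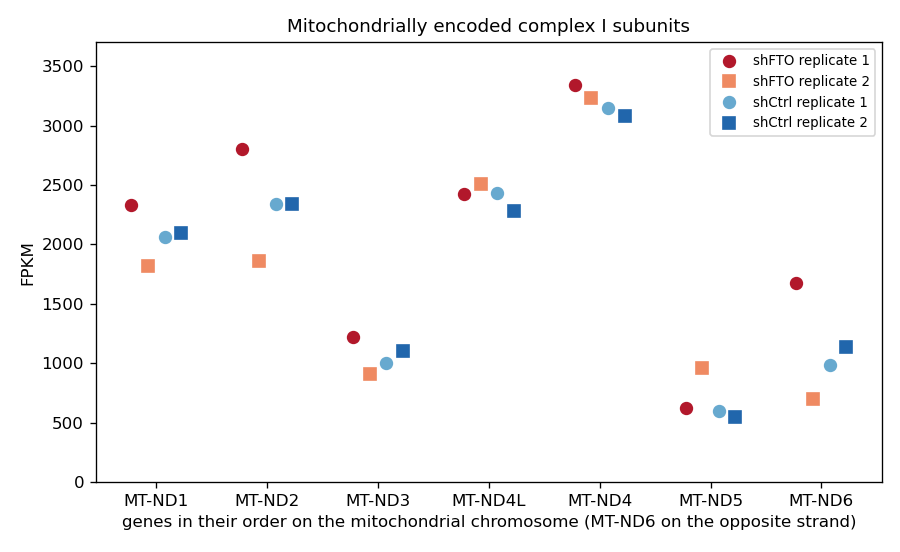
FPKM of the 7 mitochondrially encoded complex I subunits in each library, in chromosome order. The shFTO libraries (red and orange) spread widely at MT-ND1, MT-ND2, MT-ND3, MT-ND5 and MT-ND6 and lie close together at MT-ND4L and MT-ND4, where values run from 2278 to 2507 and from 3079 to 3343 FPKM.

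The value of MT-ND5 rested on shFTO replicate 2. Its difference was 0.73 without shFTO replicate 1, where it passed (limma adjusted p = 0.0363, beside 3.95% of all tested genes called in that fit), and 0.12 without shFTO replicate 2 (limma adjusted p = 0.791). Over the other alternatives its adjusted p ran from 0.525 to 0.979, and the fit that passed takes its spread from the shCtrl pair alone. Over the 7 genes the median difference was 0.03, with 5 above shCtrl and 2 below (3 above with median-ratio scaling, and 2 above, 2 below and 3 at 0 with quantile normalization). It moved to -0.19 when shFTO replicate 1 was left out and to 0.16 when shFTO replicate 2 was left out. All 7 have pseudogenes named after them in GENCODE release 29, 215 in all, as do 19 of the 46 NDUF genes, 59 in all. Reads could be divided with any that are close in sequence. The pseudogenes were counted by name and their sequences were not compared.

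The second comparison set the 2 genomes side by side within each library, a ratio that scaling between libraries cannot move. The 7 MT-ND genes summed to 14424 and 11984 FPKM in shFTO, against 12577 and 12589 FPKM in shCtrl. The 37 nuclear subunit genes summed to 1621 and 1415 FPKM in shFTO, against 1393 and 1672 FPKM in shCtrl. The mitochondrial sum was 8.9 and 8.47 times the nuclear sum in shFTO, against 9.03 and 7.53 times in shCtrl, so the shFTO libraries lay within the range of the shCtrl libraries. The difference in the log2 ratio was 0.07 and ran from -0.06 without shCtrl replicate 2 to 0.20 without shCtrl replicate 1. The median of the mitochondrially encoded core was 145 and 125 times that of the nuclear core in shFTO, against 129 and 112 times in shCtrl.

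Nuclear and mitochondrial members also differed in how the shCtrl libraries compared. The shCtrl gap had a median of 0.24 for NDUF genes and 0.00 for MT-ND genes, whereas the shFTO gap had medians of 0.19 and 0.36 for NDUF and MT-ND genes. This is a description, and the difference between the genomes was not tested. Mitochondrially encoded genes as a whole took 17.1% and 14.4% of summed FPKM in shFTO, against 14.7% and 14% in shCtrl.

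Other genes of the pathway gave context. Of 13 assembly factors without the NDUF name 11 lay below shCtrl, against 46.2% of all tested genes. Their median difference was -0.13, with 0 past the threshold. At an unadjusted limma p under 0.05 there were 0 of them, against 10.9% of all tested genes. Both shFTO libraries were below both shCtrl libraries for 7 of the 13, against 18.1% of all tested genes in that direction. ACAD9, of the inner-membrane assembly complex, had 10.31 and 11.002 FPKM in shFTO, against 12.77 and 13.01 FPKM in shCtrl. NUBPL, which delivers iron-sulphur clusters, had 2.98 and 1.64 FPKM in shFTO, against 3.31 and 3.33 FPKM in shCtrl. ACAD9 and NUBPL were among the 7, with differences of -0.25 and -0.42 (limma adjusted p = 0.568 and 0.563), and both were chosen for naming after their values were seen.

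Of 25 listed genes that transcribe or process mitochondrial RNA, 20 lay below shCtrl, against 46.2% of all tested genes. Their median difference was -0.10, and 0 passed. Relative to each gene's own mean over the 4 libraries, their medians were 0.07 and -0.17 in shFTO, against 0.02 and 0.10 in shCtrl. The lowest of these was that of shFTO replicate 2. FASTKD3, which acts on mitochondrial messengers, was the 1 gene of the 25 with an unadjusted limma p under 0.05, against 10.9% of all tested genes. FASTKD3 had 10.9 and 7.93 FPKM in shFTO, against 15.3 and 12.2 FPKM in shCtrl (difference -0.52, limma adjusted p = 0.459). TFAM, the packaging and transcription factor of mitochondrial DNA, was named after its values were seen and had 33.4 and 17.8 FPKM in shFTO, against 39.3 and 37.4 FPKM in shCtrl (difference -0.63, limma adjusted p = 0.496). Its value was lowest in shFTO replicate 2 and highest in shCtrl replicate 1. In these 2 libraries 42 and 36 of the 46 NDUF genes lay below their own mean over the 4 libraries. Relative to that mean the medians were -0.12 and -0.11 for NDUF genes, against 0.03 and -0.01 for all tested genes. Whether TFAM and the NDUF genes moved together was not tested.

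The 6 mitochondrially encoded genes of other complexes all had a difference above 0 (median 0.17, 0 past the threshold), as had 5850 of all 10873 tested genes. Both shFTO libraries were higher than both shCtrl libraries for 3 of the 6, against 24.6% of all tested genes. The groups overlapped for MT-CO3, MT-ATP6 and MT-ATP8, whose names follow from that count. In these genes shFTO replicate 1 was the highest library and shFTO replicate 2 the lowest. Of the 6, 1, MT-CYB, had an unadjusted limma p under 0.05, against 10.9% of all tested genes. MT-CYB, of complex III and next after MT-ND6 in chromosome order, had 1525 and 1511 FPKM in shFTO, against 1045 and 1099 FPKM in shCtrl. Its libraries agreed within each group, unlike those of MT-ND5 and MT-ND6 beside it. MT-CYB differed by 0.50 (SE 0.13, limma adjusted p = 0.302) and stayed short of the threshold.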

How the data were processed

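RNA-seq was done on 143B cells, with 2 shFTO and 2 shCtrl libraries. Per the submitters' processing notes the tools were cutadapt, HISAT2 2.0.5, StringTie and STAR 2.5.2b with the hg19 build. The sources used here do not give which of them made the values, or whether counting used strand. Deposited by the authors were FPKM per gene and library for 11972 genes. The authors' deposited group columns are means of log2(FPKM + 1), whose difference is their log2 fold change; the deposited table also gives that change as a fold ratio and the authors' p-values and q-values. FPKM hold no counts, so depth is unknown and no counting interval is given.

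The 10873 genes that reached 1 FPKM in 2 or more libraries were fitted as log2(FPKM + 1) with limma 3.58.1 in R 4.3.3 (eBayes with a mean-variance trend), with Benjamini-Hochberg adjustment over all of them and a threshold of 0.05. The fold scale log2(FPKM + 1) understates changes of low genes. The fit was checked on simulated data. Values and differences were printed for the MT-ND genes, the nuclear core (1 subunit is not reported here by itself), the 8 assembly factors, NDUFA4, the 6 NDUF genes with the smallest p in each direction, and the 3 highest and 3 lowest by mean FPKM; other names are said to be chosen after their values were seen or follow from a count. The members and lists were chosen with earlier results of these data known, and the promoter motifs after the data were seen. Alternatives were another pseudocount, filters, scalings, no trend, a replicate block and leaving out each library. Transcript ends and lengths came from GENCODE release 29 and promoters from RefSeq (GRCh38.p14); no coordinates were converted between builds.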

Additional observations from a re-analysis of the deposited data

How the results depend on the processing

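With an adjusted threshold of 0.05, limma called 3 genes over all tested genes, against 1 with median-ratio scaling, with no filter, with no mean-variance trend or with quantile normalization, and 0 with a pseudocount of 0.1 (1167 at an unadjusted p under 0.05). Leaving out 1 library gave 0 to 429 genes, with 0 without either shCtrl library (509 and 584 at an unadjusted p under 0.05). Complex I members called were 0, and 0 to 1 when leaving out 1 library (MT-ND5, at 0.73, without shFTO replicate 1); 1 member, NDUFB9, had an unadjusted p under 0.05, a count added after seeing the data. With a replicate block 15 genes and 0 members were called; the libraries share only a number, and the deviations of same-numbered libraries correlated at r = -0.19 over 10873 genes. The MT-ND median of 0.03 ran from -0.19 to 0.16 when leaving out 1 library. Signs were followed only for 34 members, those picked by the rules given above, so the lists that follow leave out turns of other members. Of all 46 NDUF genes 29 lay below shCtrl, against 15 to 41 when leaving out 1 library. Signs turned with rescaling to genes outside the mitochondrial chromosome for MT-ND1 (0.0096) and NDUFAF1 (0.0107); with median-ratio scaling for MT-ND3 (-0.0429), MT-ND6 (-0.0169), NDUFA4 (-0.0316), NDUFS7 (-0.0271) and NDUFV1 (-0.0204); and with quantile normalization for MT-ND3 (-0.18), MT-ND6 (-0.21), NDUFS6 (0.0376) and NDUFS7 (-0.041). When leaving out 1 library, signs turned within these ranges: MT-ND1 -0.19 to 0.16, MT-ND2 -0.33 to 0.26, MT-ND3 -0.21 to 0.22, MT-ND6 -0.60 to 0.66, NDUFA3 -0.0475 to 0.38, NDUFA4 -0.12 to 0.16, NDUFA7 -0.0714 to 0.50, NDUFAF1 -0.0482 to 0.0264, NDUFAF2 -0.26 to 0.0305, NDUFAF3 -0.67 to 0.0933, NDUFAF4 -0.22 to 0.019, NDUFAF5 -0.0708 to 0.0216, NDUFAF6 -0.0564 to 0.20, NDUFAF7 -0.19 to 0.0353, NDUFAF8 -0.43 to 0.00407, NDUFS5 -0.0452 to 0.19, NDUFS6 -0.10 to 0.0489, NDUFS7 -0.21 to 0.24, NDUFS8 -0.31 to 0.15 and NDUFV1 -0.11 to 0.16. The cause was not tested, and a group left with 1 library is assumed to vary like the other.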
